A study of Mus musculus with 8 samples.

Results

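Retinoid X receptor (RXR) binding was examined at 7 mouse genes that carry out and drain the first oxidation of fatty acid beta-oxidation: the acyl-CoA dehydrogenase genes Acadvl, Acadl, Acadm and Acads, the electron transfer flavoprotein (ETF) genes Etfa and Etfb, and Etfdh. A peak belonged to this set when its summit lay inside one of these genes or within 50 kb of it, with gene positions from RefSeq on the mouse build mm10 (GRCm38). This gave 30 of the 23961 deposited peaks: 0 of 8 in edKO replicate 3, 2 of 127 in edKO replicate 4, 16 of 19129 in WT replicate 3 and 12 of 4697 in WT replicate 4. Binding had been measured by chromatin immunoprecipitation and sequencing (ChIP-seq) of whole hearts taken from newborns on postnatal day 0. The edKO hearts came from newborns with Rxra and Rxrb (RXRab-/-) deleted in cardiomyocytes only, so the other cells of the heart keep both genes, and the WT hearts from wild-type newborns. Each genotype had 2 hearts, numbered 3 and 4, each with an immunoprecipitate made with 1 RXR antibody and its own input. The sources used here give neither the Cre driver nor the RXR forms that the antibody binds, and peak lists hold no RNA or protein level, so the deletion itself was not measured.

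RXR is a nuclear receptor that binds DNA as the partner of other receptors, among them the peroxisome proliferator-activated receptors (PPAR), which sense fatty acids. PPAR and RXR pairs are known to bind copies of the hexamer AGGTCA repeated in the same direction with 1 base between them, a DR1 element. Each turn of beta-oxidation starts with an acyl-CoA dehydrogenase that suits the length of the fatty acid and hands its electrons to ETF. ETF passes them to ETF-ubiquinone oxidoreductase, the product of Etfdh, which reduces ubiquinone in the inner mitochondrial membrane. The heart comes to rely on this pathway for its energy after birth.

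At each of the 7 genes both WT hearts had a peak close to the start of the gene, and it was the strongest region of that gene. Peaks of WT replicates 3 and 4 that overlapped by at least 1 bp were joined into a region, with 1 peak per heart, and the region with the highest mean fold enrichment is called the leading region of a gene. The promoter windows of RefSeq on GRCm38.p6, which run from 250 bases before a gene's start to 50 after it, were read for AGGTCA on both strands and for the DR1 element, in which 2 copies of AGGTCA flank 1 base of any kind. Those of Etfa and Etfb are printed because both WT summits lie inside the window, and that of Acadm because both summits lie just beyond its first base. Sequences run 5′ to 3′ along the gene, with DR1 matches in capitals at Etfa and Etfb and the AGGTCA match in capitals at Acadm. The Etfa window is chr9:55512194-55512493 on the minus strand, the Etfb window chr7:43443822-43444121 on the plus strand and the Acadm window chr3:153944594-153944893 on the minus strand.
Etfa: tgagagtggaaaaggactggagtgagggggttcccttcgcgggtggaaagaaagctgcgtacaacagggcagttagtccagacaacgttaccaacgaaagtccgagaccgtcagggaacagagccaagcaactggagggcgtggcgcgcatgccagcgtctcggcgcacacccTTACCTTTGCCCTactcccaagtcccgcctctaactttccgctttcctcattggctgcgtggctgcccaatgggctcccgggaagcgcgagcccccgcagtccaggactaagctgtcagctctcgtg
Etfb: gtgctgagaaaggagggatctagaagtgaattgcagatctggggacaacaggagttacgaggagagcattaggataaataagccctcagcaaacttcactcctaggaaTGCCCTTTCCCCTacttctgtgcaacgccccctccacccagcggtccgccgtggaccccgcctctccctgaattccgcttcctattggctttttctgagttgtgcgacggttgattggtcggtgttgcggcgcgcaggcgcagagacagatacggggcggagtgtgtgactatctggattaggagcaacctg
Acadm: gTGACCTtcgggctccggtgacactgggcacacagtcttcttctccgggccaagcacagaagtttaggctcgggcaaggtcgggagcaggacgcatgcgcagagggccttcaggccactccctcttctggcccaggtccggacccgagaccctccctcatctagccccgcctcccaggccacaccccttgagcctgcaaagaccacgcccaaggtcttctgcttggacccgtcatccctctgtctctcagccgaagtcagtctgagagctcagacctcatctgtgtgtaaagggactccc

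The capitals in the Etfa window mark a DR1 match with 2 mismatches on the strand opposite to the gene, 77 to 65 bp before the start. Both WT summits lay inside these 13 bases, at 70 bp before the start in WT replicate 3 and at 69 bp in WT replicate 4. In the Etfb window the capitals mark a DR1 match with 3 mismatches, 142 to 130 bp before the start, which was 8 bp from the summit of WT replicate 3 and 21 bp from that of WT replicate 4. In the Acadm window they mark an exact AGGTCA on the opposite strand, 249 to 244 bp before the start, with the summits 24 and 34 bp further out in WT replicates 3 and 4. Sequence beyond the window, where the Acadm summits lie, was not used here.

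Exact AGGTCA occurred in 2 of the 7 windows, at Acadm and Acadvl, beside 14.7% of the 21262 promoter windows of protein-coding genes. The Acadvl match lay 531 and 513 bp from the summits of WT replicates 3 and 4, so it was not under them. Up to 2 mismatches in the 12 fixed bases of DR1 occurred in the Etfa window alone among the 7, beside 3.31% of all windows. At up to 3 mismatches, a setting chosen after the sequences had been read, 3 of the 7 windows held a match, at Acadm, Etfa and Etfb, beside 22.9% of all windows. One of the Acadm matches overlaps its AGGTCA match. The DR4 element, AGGTCA repeated in the same direction with 4 bases of any kind between, with up to 2 mismatches occurred at Acadvl only, where it overlaps the AGGTCA match, beside 2.65% of all windows. AGGTCA directly preceded by TCA, an extended form that orphan receptors bind as monomers, was in none of the 7 windows and in 0.334% of all windows. Of the 42 windows in the genome that held both a summit of the WT hearts and a DR1 match with up to 2 mismatches, the Etfa window was 1 of 3 with the summit inside the match, and the median distance was 38 bp. Among the 895 windows that held a summit of the WT hearts, AGGTCA occurred in 19.0%. DR1 occurred in 4.69% of them at up to 2 mismatches and in 25.4% at up to 3. DR4 occurred in 6.59% and AGGTCA preceded by TCA in 0.223%. Of the 7 windows, only those of Etfa and Etfb held a summit, so the others do not cover the sequence under their summits. These matches are descriptions of the letters and not measured binding sites.

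Acadvl encodes the very-long-chain acyl-CoA dehydrogenase, which acts at the inner mitochondrial membrane. The gene lies on chromosome 11 from 70010183 to 70015428, and its leading region ran from 70014772 to 70015509 with the summits 449 and 431 bp into the gene in WT replicates 3 and 4. No peak was called there in edKO replicate 3, and edKO replicate 4 had a fold enrichment of 3.08, against 20.4 in WT replicate 3 and 11.6 in WT replicate 4. Fold enrichment is the authors' ratio of the fragments piled up at a summit to the local background of the same heart. At Acadvl the WT hearts stood far apart, and both lay above edKO replicate 4.

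Acadl encodes the long-chain acyl-CoA dehydrogenase, an abundant enzyme of rodent heart mitochondria. Its region on chromosome 1 from 66862462 to 66863521 covered the start of the gene, which lies at 66863309 on the minus strand, and the summits were 466 and 443 bp inside. Here too edKO replicate 3 had no peak, and edKO replicate 4 had a fold enrichment of 5.30, against 21.6 in WT replicate 3 and 17.2 in WT replicate 4. In edKO replicate 4 the summit lay 436 bp inside the gene, close to those of the WT hearts.

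Acadm encodes the medium-chain acyl-CoA dehydrogenase, a textbook PPAR target whose loss in humans is a common inborn error of fatty acid oxidation. Its region on chromosome 3 from 153944256 to 153945166 had its summits upstream of the gene, 273 and 283 bp before the start. Neither edKO heart had a peak, against fold enrichments of 20.1 (WT replicate 3) and 16.3 (WT replicate 4). Acads encodes the short-chain acyl-CoA dehydrogenase, which acts on the last cycles of a fatty acid. Its region on chromosome 5 from 115118986 to 115119537 had its summits 156 and 150 bp into the gene. Neither edKO heart had a peak at Acads, against 7.88 in WT replicate 3 and 6.82 in WT replicate 4, and these were the weakest leading peaks of the 7 genes in both WT hearts.

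Etfa and Etfb encode the 2 subunits of ETF, a soluble flavoprotein of the mitochondrial matrix. The Etfb region on chromosome 7 from 43443282 to 43444318 had its summits 150 and 109 bp before the start of Etfb, inside the neighbouring gene Cldnd2, whose own start was 3106 bp away. There was no peak at Etfb in either edKO heart, against fold enrichments of 29.6 (WT replicate 3) and 26.5 (WT replicate 4). Etfa had 2 regions at its start. The leading one, on chromosome 9 from 55512039 to 55512635, had no peak in either edKO heart, against 20.6 in WT replicate 3 and 16.1 in WT replicate 4. A weaker one, from 55511688 to 55512011, lay 410 and 444 bp into the gene and also had no edKO peak, against 5.96 in WT replicate 3 and 5.40 in WT replicate 4. Both WT hearts thus resolved the same pair of peaks at Etfa.

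Etfdh encodes the oxidoreductase that links ETF to the respiratory chain. Its region on chromosome 3 from 79628089 to 79628967 had its summits 400 and 429 bp into the gene. The start of another protein-coding gene on the opposite strand, 4930579G24Rik, lay 712 bp from the WT replicate 3 summit. Neither edKO heart had a peak, against 19.6 in WT replicate 3 and 9.29 in WT replicate 4. This was the widest gap between the WT hearts among the 7 leading regions. The WT replicate 4 value was 0.474 times that of WT replicate 3.

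**Figure D1:**
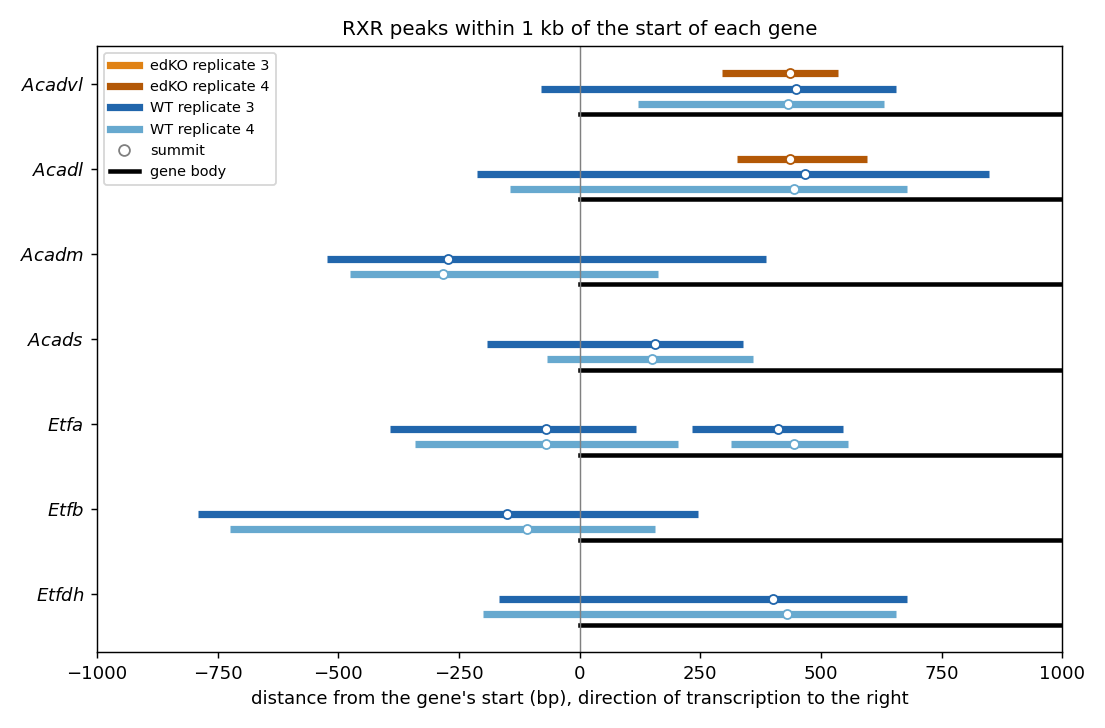
Peaks of each heart (bars, edKO above WT) and their summits (open circles) by distance in bp from the start of each gene, with transcription to the right and the gene body in black. At all 7 genes the leading WT peaks lie within 1 kb of the start, with 3 leading summits before it and 4 after it, and edKO replicate 4 has a peak at Acadvl and Acadl.

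A region of both WT hearts lay inside or within 50 kb of 7 of 7 genes, beside 32.4% of all 21896 protein-coding genes. Counted at the start site, 7 of 7 genes had a summit within 500 bp, a distance chosen after the summits had been seen, beside 8.19% of the 17491 protein-coding genes with a promoter window. Among the genes that had any region within 50 kb, the strongest lay within 500 bp of the gene's own start in 18.6% of the 5644 with a window. The summits of the hearts fell 1 to 41 bp apart at the 7 leading regions, with a median of 18 bp, and the median over all 4342 regions of the WT hearts was 36 bp.

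By mean fold enrichment over the WT hearts, the order was Etfb (28.1 ± 2.17, SD, n = 2), Acadl (19.4 ± 3.1), Etfa (18.3 ± 3.24), Acadm (18.2 ± 2.66), Acadvl (16.0 ± 6.2), Etfdh (14.5 ± 7.3) and Acads (7.35 ± 0.748). The Etfb region ranked 62 among the 4342 regions, Acadl ranked 219, Etfa 258, Acadm 266, Acadvl 408, Etfdh 539 and Acads 2443. Thus 6 of the leading regions were stronger than at least 87.6% of all regions, and the Acads region was stronger than 43.7%. The median of the 7 was 18.2, against 8.67 for the strongest region of each of the 7095 genes with a region within 50 kb. The 10 regions of the set had a median of 15.2. It was 7.81 over all regions and 7.41 over the 1316 regions within 500 bp of a protein-coding start. The 95% counting intervals of neighbours in this order overlapped in both WT hearts, except that Etfdh (15.4 to 24.6) lay above Acads (5.58 to 10.8) in WT replicate 3. From Acadl to Etfdh all intervals overlapped with each other in WT replicate 3. In WT replicate 4 the interval of Etfdh (6.88 to 12.3) lay below those of Acadl (13.4 to 21.6), Etfa (12.8 to 19.9) and Acadm (12.4 to 21.2), and that of Acadvl (8.60 to 15.4) overlapped with all of these. Etfa and Acadm changed places between the hearts, and so did Acadm and Acadvl.

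**Figure D2:**
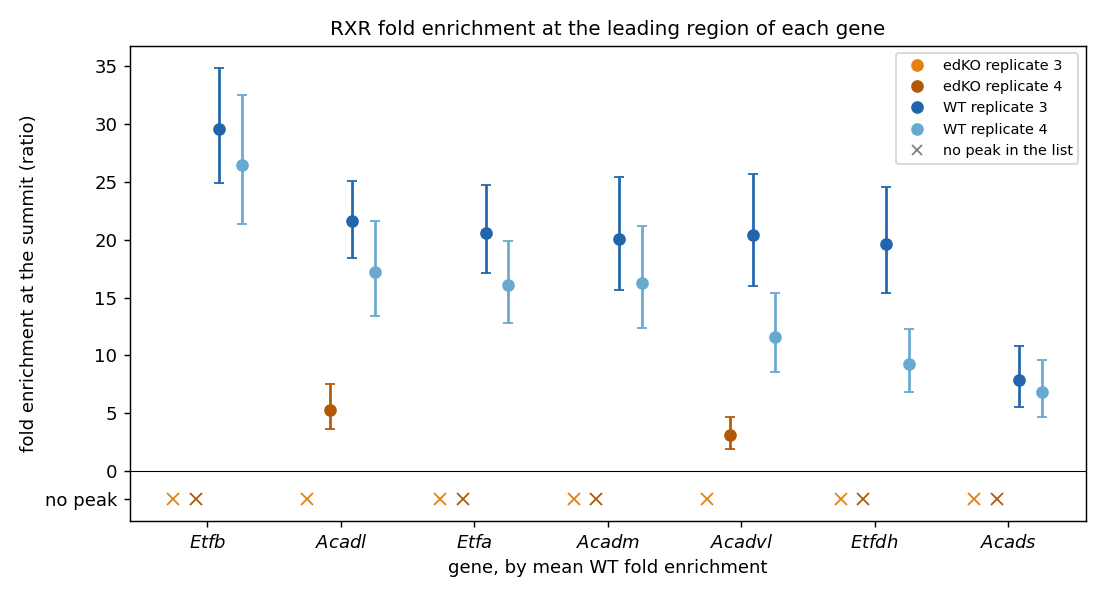
Fold enrichment (ratio) at the leading region of each gene in the edKO and WT hearts, with 95% Poisson intervals for the fragments at the summit. Crosses on the "no peak" line mark a heart without a called peak, which is not a measured 0. The WT values run from 6.82 to 29.6, and the edKO values are 5.30 at Acadl and 3.08 at Acadvl.

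**Figure D3:**
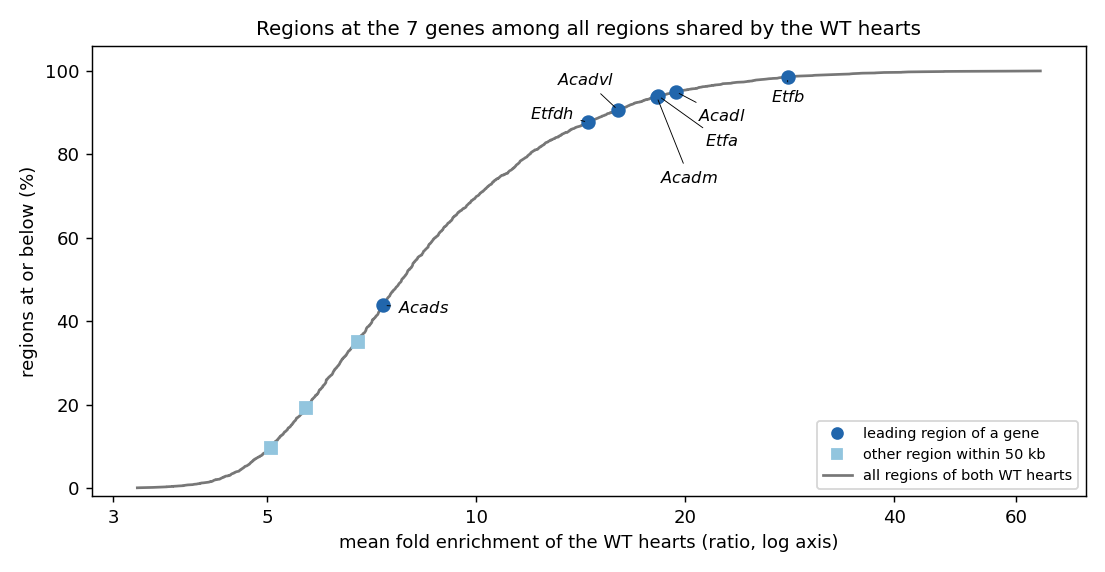
Cumulative share (%) of all 4342 regions of the WT hearts by mean fold enrichment (log axis), with the 10 regions at the 7 genes marked. The leading regions of 6 genes lie in the upper tail, from 14.5 at Etfdh to 28.1 at Etfb, and Acads, at 7.35, lies below the middle of the curve.

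WT replicate 4 had lower fold enrichments than WT replicate 3 at all 7 leading regions, with a median ratio of 0.797. Over all regions of the WT hearts the median ratio was 0.673. Without WT replicate 4 the median over the 7 genes was 20.4, and without WT replicate 3 it was 16.1.

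The comparison of genotypes asks how much of the RXR signal at these genes depends on Rxra and Rxrb in cardiomyocytes. The edKO hearts had 0 and 2 peaks in the set, against 16 and 12 in the WT hearts, and the groups did not overlap. The mean was 1.00 ± 1.41 peaks in edKO hearts and 14 ± 2.83 in WT hearts (SD, n = 2 each), a ratio of 0.0714. The exact permutation test gave a two-sided p = 0.333, the smallest that 2 hearts against 2 allow. Over all peaks of the series the ratio was 0.00567. By gene, a peak within 50 kb was present at 0 of 7 genes in edKO replicate 3, 2 of 7 in edKO replicate 4, 7 of 7 in WT replicate 3 and 7 of 7 in WT replicate 4, beside 0.119%, 1.52%, 64.5% and 33.5% of all protein-coding genes.

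Of the 10 regions that both WT hearts had at these genes, 8 had no peak in either edKO heart, beside 97.0% of all such regions. The other 2, the leading regions of Acadvl and Acadl, had a peak in edKO replicate 4, beside 2.88% of all regions. None had one in edKO replicate 3, beside 0.184%. Regions with an edKO replicate 4 peak were strong ones, with a median WT fold enrichment of 26.1. Among the 539 regions at least as strong as that of Etfdh, 21.7% had such a peak, and 2 of the 6 genes in that range did. The strongest region of the set, at Etfb, had none.

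At Acadl the edKO replicate 4 fold enrichment was 0.274 times the WT mean and at Acadvl 0.192 times, and the median over the 125 regions with an edKO replicate 4 peak was 0.250. The Acadl peak had 29 fragments at its summit in edKO replicate 4, over a local background of 4.66. WT replicate 3 had 160 fragments there over 6.47, and WT replicate 4 had 70 over 3.0. In edKO replicate 4 the 95% counting interval for the Acadl fold enrichment was 3.61 to 7.53. It did not reach those of WT replicate 3 (18.4 to 25.1) or WT replicate 4 (13.4 to 21.6). The Acadvl peak had 20 fragments in edKO replicate 4, against 70 in WT replicate 3 and 47 in WT replicate 4. It had the lowest fold enrichment and the weakest p of the 127 peaks of its list, with a −log10 p of 6.03 and a −log10 q of 1.47. With a single edKO heart holding a peak, neither of these differences has a replicate check. At a stricter −log10 q of 5 the Acadvl peak no longer counted, and 9 of the 10 regions then had no edKO peak. When an overlap had to cover 50% of both the region and the peak, neither the Acadl nor the Acadvl peak of edKO replicate 4 counted, and 9 of 9 regions had no edKO peak. These edKO peaks were 272 and 243 bp wide, in regions of 1060 and 738 bp.

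A region without a called peak is not shown to lack RXR. Called summits had at least 24 fragments in edKO replicate 3 and at least 17 in edKO replicate 4. The leading peaks of the 7 genes had 36 to 160 fragments in WT replicate 3 and 30 to 90 in WT replicate 4, all above both values. Their −log10 p ran from 23.7 to 162 in WT replicate 3 and from 17.9 to 103 in WT replicate 4, above the weakest called peak of edKO replicate 3 (9.53) and of edKO replicate 4 (6.03). The commonest local background in the lists was 3.11 and 2.96 fragments in edKO replicates 3 and 4, against 2.48 and 2.32 in WT replicates 3 and 4. In whole hearts, fewer cells with RXR on the DNA and less RXR per cell cannot be told apart. How well each immunoprecipitation worked was not tested, and with 2 hearts per genotype it cannot be told apart from the deletion. The whole lists held 8 and 127 peaks in edKO replicates 3 and 4, and 19129 and 4697 in WT replicates 3 and 4.

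**Figure D4:**
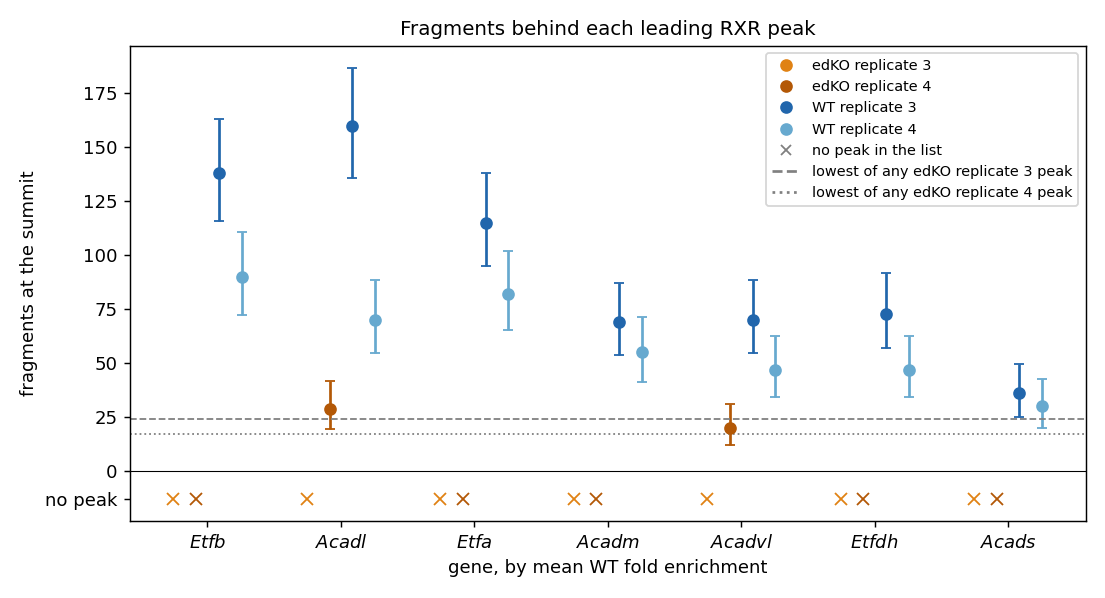
Fragments at the summit of each leading peak in the edKO and WT hearts, with 95% Poisson intervals. Grey lines give the lowest number behind any called peak, 24 in edKO replicate 3 (dashed) and 17 in edKO replicate 4 (dotted). Crosses on the "no peak" line mark hearts without a called peak, and each WT point lies above both lines.

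Acadl had the most fragments in WT replicate 3, 160 over a local background of 6.47, while Etfb had 138 over 3.70, so Etfb led by fold enrichment and not by fragments. In WT replicate 4 Etfb led by both measures, with 90 fragments over a background of 2.32. The width of the leading peaks ran from 509 bp at Etfa to 1060 bp at Acadl in WT replicate 3, and from 428 bp at Acads to 883 bp at Etfb in WT replicate 4.

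Beside the 7 leading peaks of each WT heart, the set held 9 other peaks in WT replicate 3 and 5 in WT replicate 4. In WT replicate 3, 10 of 16 peaks had a partner in the other WT heart (62.5%), beside 22.9% of the whole list. In WT replicate 4, 11 of 12 did (91.7%), beside 94.4%. Both WT replicate 4 peaks inside Elp5 overlapped the same WT replicate 3 peak, and the whole lists were not matched to the set for strength. The peaks other than the leading ones had fold enrichments of 3.69 to 8.30 in WT replicate 3 and of 3.49 to 6.42 in WT replicate 4. Shared regions away from the starts lay inside Elp5, 29.5 kb from Acadvl, with 7.67 and 5.84 in WT replicates 3 and 4, and 3051 bp from Mlec, 41.9 kb from Acads, with 3.69 and 6.42.

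The 3 strongest peaks found in 1 WT heart belonged to WT replicate 3. One lay 109 bp from Rabggtb and 9.28 kb from Acadm (8.30), another 510 bp from Mlec and 39.3 kb from Acads (5.85), and the third 336 bp from Gabarap and 19.1 kb from Acadvl (5.45). The remaining single-heart peaks were at Mlec, Cabp1 and Fnip2. Each of these was nearer to another gene than to one of the 7. The peak nearest to the 50 kb limit lay 48.4 kb from Acads (4.31 in WT replicate 3), and the first beyond it lay 61.6 kb from Acadvl (24.4 and 12.6 in WT replicates 3 and 4).

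Of the other members of the acyl-CoA dehydrogenase family, 0 of the 7 with a promoter window had a region of both WT hearts within 500 bp of the start, beside 8.19% of genes. This family list holds Ivd, Acad8, Acadsb and Gcdh, which act in the breakdown of leucine, valine, isoleucine and lysine, Acad9, an assembly factor of complex I, and Acad10, Acad11 and Acad12. None of these 8 genes had a region of both WT hearts within 10 kb, beside 17.4% of all protein-coding genes, and 2 had one within 50 kb. These were Acadsb (8.04 and 5.84 in WT replicates 3 and 4, nearest to 2310057M21Rik) and Gcdh (8.09 and 4.36, nearest to Calr). In WT replicate 3 alone, 3 of the 7 with a promoter window had a peak within 500 bp of the start, beside 26.4% of genes: Acad11 (10.0), Acad12 (6.03) and Acad10 (5.57). All 7 genes of the set had one. The difference between the lists was not tested.

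All 12 listed genes of other steps of mitochondrial beta-oxidation had a region of both WT hearts within 50 kb and within 10 kb. The shares over all protein-coding genes were 32.4% and 17.4%. Of the 9 with a promoter window, 5 had a region within 500 bp of the start, beside 8.19% of genes, with Hadha and Hadhb sharing 1. The strongest regions of the 12 genes had a median fold enrichment of 17.5, against 8.67 over all genes with a region within 50 kb. Hadha and Hadhb also shared their strongest region, so this median counts it for both genes. Of these strongest regions, those of Echs1, Eci1 and Cpt1b were nearest to other genes, namely Fuom, Mlst8 and Chkb. The strongest belonged to Cpt1a (43.7 and 39.4 in WT replicates 3 and 4), the gate of mitochondrial fatty acid entry, Acaa2 (41.3 and 32.7), the thiolase of the last step, and Slc25a20 (27.8 and 22.6), the carnitine carrier. The Slc25a20 summit lay 29 bp from the gene's start, and the Cpt1a summit 2178 bp from it. For 3 of the 12 genes, Cpt1a, Cpt1b and Acaa2, a region within 50 kb also had an edKO replicate 4 peak. That heart had a peak near 1.52% of all protein-coding genes. The regions of these 3 genes were strong ones, with mean WT fold enrichments of 41.5, 18.2 and 37.0. Among the 539 regions at least as strong as that of Etfdh, 21.7% had an edKO replicate 4 peak.

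As a check of the tissue, 8 of 9 cardiomyocyte marker genes had a region of both WT hearts within 50 kb, led by Myh6 and Myh7, which share 1, and Nppa had none. Of the markers of other cells, 3 of 5 endothelial, 1 of 5 fibroblast and 2 of 5 blood and macrophage genes had one, beside 32.4% of all protein-coding genes. Binding near a gene is not its expression, so these counts do not measure the cells present.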

How the data were processed

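RXR immunoprecipitates and inputs of 2 edKO and 2 WT hearts were sequenced. The submitters' processing notes name cutadapt, BWA, SAMtools, MACS3 and the build mm10 (GRCm38), with no versions or settings in the sources used here. Each heart has its own peak list per the labels, so hearts were not pooled. The deposited lists give fold enrichment as a ratio, the deposited −log10 p and −log10 q against the local background, and a deposited display score that was not used. Positions are printed 1-based.

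Fragments at each summit and the local background were solved from the fold enrichment (pseudocount 1) and the Poisson −log10 p. Within a tolerance of 0.02 on −log10 p, 100% of the peaks in each list gave whole fragments, after scaling by 0.967 in WT replicate 4 and 0.992 in edKO replicate 3. Background is on the scaled axis. The 11 peaks with the strongest p were left out of this step. Intervals are 95% Poisson and cover counting error only, with the background taken as fixed. Recovery and joining were tested on simulated data.

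All 7 genes matched the RefSeq table, with 1 promoter window each. Peak numbers per heart were compared by an exact permutation test. Named were all 7 genes with their leading regions, other shared regions within 10 kb or nearest to them, the 3 strongest single-heart peaks, every edKO peak, and of related genes the 3 strongest and those without a region. Shared regions further away were added after their values were seen. The genes and lists were chosen with earlier results of these data known. The replicate number is not stated to pair hearts. Python 3.11.15 with SciPy 1.17.1 was used.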

Additional observations from a re-analysis of the deposited data

How the results depend on the processing

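All 7 genes kept a region of both WT hearts within 10 kb and 1 kb, at a −log10 q of 5, at a −log10 p of 10, with a reciprocal overlap of 50%, with summits within 200 bp and with either WT heart left out. With a peak given to its nearest gene only, 6 of 7 had one, since the Etfb summits lie inside Cldnd2. A reciprocal overlap of 50% left 9 of 9 regions without an edKO peak, since the edKO replicate 4 peaks at Acadl and Acadvl cover less of their regions than that. The nearest-gene setting left 5 of 7 regions without an edKO peak, against 8 of 10. Without WT replicate 3, 10 of 12 regions had no edKO peak, without WT replicate 4 it was 14 of 16, without edKO replicate 3 it was 8 of 10 and without edKO replicate 4 it was 10 of 10. Leaving out 1 heart at a time gave 7 genes each time, a median leading fold enrichment of 16.1 to 20.4 and an edKO to WT ratio of peaks of 0 to 0.143. Where a WT heart is left out, the peaks of the other stand in for the 10 regions. Without edKO replicate 4 the ratio was 0. Under the other settings the ratio was 0.04 to 0.143. Permuting within the replicate number (a replicate block) left the ratio at 0.0714 and gave an exact p = 0.5, the smallest it allows. The 2 windows with AGGTCA compare with 1 for DR1 and 1 for DR4 at up to 2 mismatches and 0 for AGGTCA preceded by TCA. Called peaks had at least 24 fragments in edKO replicate 3 and 17 in edKO replicate 4. These are the lowest values among called peaks and not a fixed limit, since a call also depends on the local background. Signal that was not called could not be seen.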

Other observations

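Genes that supply ETF with electrons from other fuels, or with its flavin cofactor, were read in the same way. Of 6 enzymes that pass electrons to ETF outside fatty acid oxidation, 4 had a region of both WT hearts within 50 kb and 1 within 10 kb, beside 32.4% and 17.4% of all protein-coding genes. Ivd, Gcdh, Acadsb and Acad8 are also in the acyl-CoA dehydrogenase family list above, so the Acadsb and Gcdh regions are counted in both lists. Dmgdh, an enzyme of choline breakdown, had the strongest (16.1 and 10.8 in WT replicates 3 and 4), 19.2 kb from the gene and nearest to Arsb. Sardh, which acts on the next product of that pathway, had one inside the gene (13.5 and 7.74). Ivd and Acad8 had none.

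Of 6 genes of ETF maturation and flavin supply, 4 had a region within 50 kb and 2 within 10 kb. The shares over all protein-coding genes were 32.4% and 17.4%. Flad1, which encodes FAD synthase, had the strongest (22.1 and 14.9), 7.97 kb from the gene and nearest to Zbtb7b. Etfbkmt, which encodes a methyltransferase of the ETF beta subunit, followed (12.1 and 10.2), 16.1 kb away and nearest to Amn1. The region of Slc52a2, a riboflavin transporter gene (9.19 and 3.49), lay 26.7 kb away and nearest to Dgat1. Etfrf1 and Rfk had none. Slc25a32, which encodes a mitochondrial folate and FAD carrier, had a region 34 bp outside the gene (4.43 and 5.57). Among the genes with a promoter window, 6 of the first list and 4 of the second, 0 had a region of both WT hearts within 500 bp of the start, beside 8.19% of all genes with a window. In WT replicate 3 alone, Sardh (6.60, 17 bp from the start) and Flad1 (5.96, 34 bp) had a peak there, beside 26.4%. No region of either list had a peak in edKO replicate 4, beside 2.88% of all regions, and none of these differences was tested.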
